A study of Arabidopsis thaliana with 6 samples.

Results

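Distal promoter regions are stretches of the Arabidopsis thaliana genome that recovered chromatin in a SOC1 binding experiment and lay more than 1000 and up to 3000 bp upstream of a gene. They were chosen by position alone, from the gene columns of the authors' table of candidate regions. The centre of such a region overlapped no annotated gene, had no flanking gene within 1000 bp, and was upstream, at no more than 3000 bp, of at least 1 flanking gene that points away from it. The rule gave 2114 of the 24032 listed regions (8.8%). They lay upstream of 2316 genes, of which 253 had 2 or more such regions. On 1 side 1656 regions met the rule, and 458 did so on both sides.

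Chromatin immunoprecipitation with sequencing (ChIP-seq) had been done on apices of plants whose native SOC1 gene carried the soc1-2 mutation and which had a SOC1 transgene. In gSOC1-GFP (line 7) the SOC1 promoter drove the genomic SOC1 copy fused to GFP, and in untagged gSOC1 (line 9) it drove the same copy without GFP. All plants had 15 days of short and 3 days of long photoperiods, were harvested at zeitgeber time 4, and gave chromatin that was precipitated with an anti-GFP antibody. Each genotype was represented by 1 transgenic line and 3 libraries, so the untagged libraries gave the background of the antibody, and a difference between lines cannot be told apart from the tag. No RNA was measured, so the tissue was not checked against marker genes, and a region bound in more cells cannot be told apart from one bound more strongly per cell.

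SOC1 is a MADS-domain transcription factor that collects signals of day length, age, gibberellin and temperature and promotes flowering at the shoot apex. MADS-domain proteins bind DNA as dimers at short sequences called CArG boxes and can join into larger complexes that bring separate boxes together. Plant genes are also regulated from sites well upstream of their start, and in the compact Arabidopsis genome a site at that distance often lies between a pair of genes.

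The listed regions held 663108, 183668 and 262776 reads in gSOC1-GFP replicates 1, 2 and 3. In the untagged libraries of the same numbers they held 396326, 41073 and 61963. Counts were scaled to these column totals and given as reads per 1000000 listed reads (RPM). The median distal promoter region had 14, 5 and 8 reads with the tag and 6, 1 and 2 without it, and 1039 of the 2114 had no read in at least 1 untagged library. Such low counts limit what a single region can show in replicates 2 and 3. Nothing in the labels says that libraries of a genotype came from separate plantings, so p-values measure the spread between these libraries, which may be technical.

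In 31 of the 2114 distal promoter regions (1.47%) the authors' false discovery rate (FDR) was below 0.05 in all 3 replicates, and these are referred to as called. Over all listed regions the share was 1.12%, so the distal regions were called about as often as the table as a whole. The called regions lay upstream of 41 genes, 20 upstream of a single gene and 11 between a pair. Log2 enrichment was the log2 scaled count of gSOC1-GFP minus that of the untagged library with the same replicate number, with a prior count of 1, averaged over the 3 pairs. Its median was 2.64 over the called distal regions, which had been selected on this difference, and it ranged from 1.00 at TTL4 to 6.21 at MIR156e. The median spread was an SD of 1.01 (n = 3 pairs). For all 2114 distal regions the median was 0.38, with values of 0.40, 0.28 and 0.20 in pairs 1, 2 and 3, beside 0.28 for all listed regions. With a prior count of 5 these medians were 0.13 and 0.08. All 3 scaled gSOC1-GFP values lay above all 3 untagged values at 28 of the called regions and at 211 of the 2114 distal regions (9.98%), beside 8.34% of all listed regions.

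Counts were also compared with edgeR's quasi-likelihood test over every listed region, with the replicate number as a block, since the deposited FDR columns set libraries of the same number against each other. Of the distal promoter regions 12 passed at a Benjamini-Hochberg adjusted p below 0.05 (0.568%), all of them higher in gSOC1-GFP, against 0.379% of all listed regions. Of these 12, the authors' FDR had called 11. With column totals in place of TMM library sizes 26 passed (1.23%), against 0.878% of all listed regions. Without the block 0 distal regions passed edgeR (0.0% of all listed regions), with 88 at an unadjusted p below 0.05 (4.16%, beside 3.17% of all listed regions). DESeq2 with the block gave an adjusted p to 383 distal regions and called 18 of them (4.7%), against 2.24% of all regions to which it gave one. All 18, and 22 of the 26 that passed with column totals, were among the authors' calls, which rest on the same counts.

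**Figure D1:**
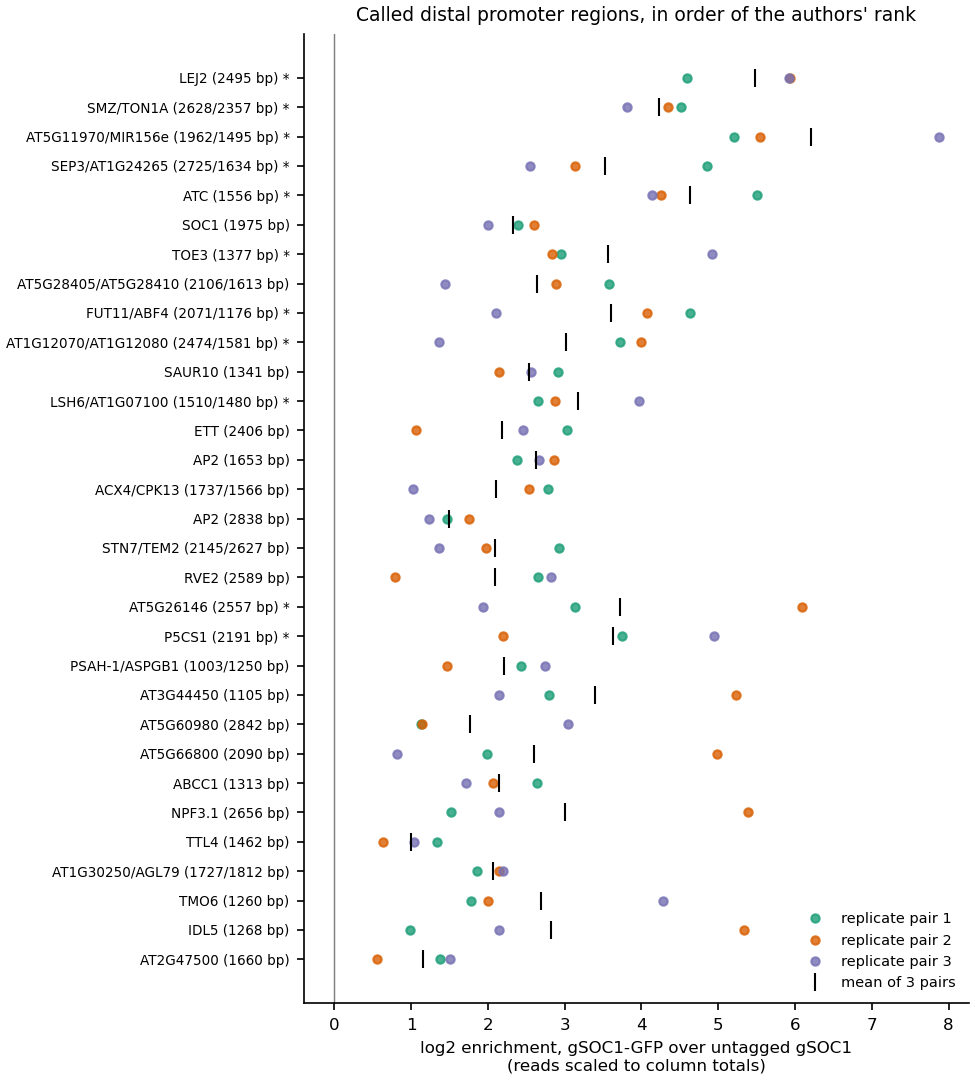
Log2 enrichment of gSOC1-GFP over untagged gSOC1 in each of the 31 called distal promoter regions, with a point for each replicate pair and a bar at the mean. Regions are in order of the authors' rank and carry the distance to each gene they lie upstream of, and a star marks those that passed edgeR with the replicate block. All points lie above 0, and the spread between pairs is widest at regions such as IDL5 and NPF3.1, where an untagged library had no read.

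**Figure D2:**
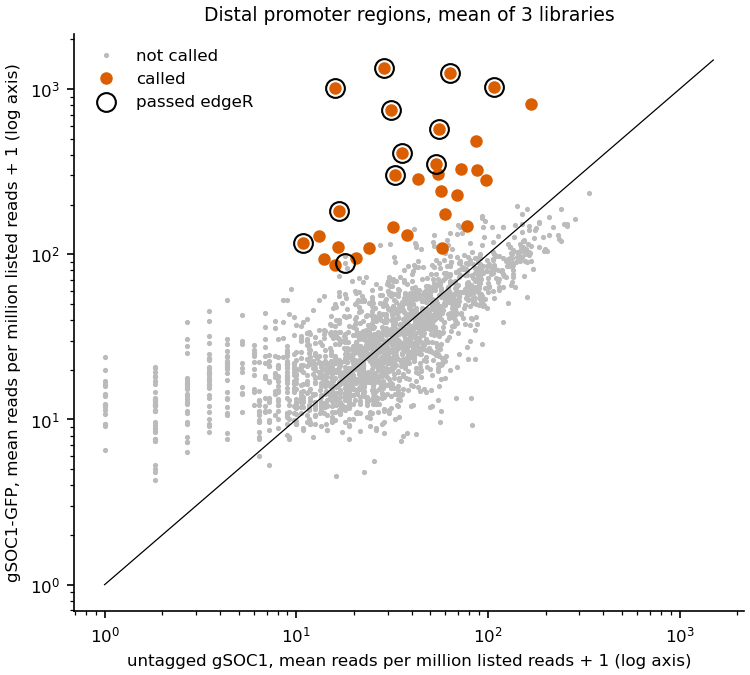
Mean RPM of the 2114 distal promoter regions in the 3 untagged gSOC1 libraries (horizontal, log axis) and the 3 gSOC1-GFP libraries (vertical, log axis), each with 1 added. Orange points are the 31 called regions, rings mark the 12 that passed edgeR, and the line shows equal values. The 12 ringed regions include those farthest above the cloud, while called regions such as TTL4 and AT2G47500 lie within it.

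Floral repressors were the list with the most called regions. Of 19 listed genes that delay flowering, 8 had a distal promoter region and 4 had a called one, AP2, SMZ, TOE3 and TEM2. They accounted for 5 called regions of 11 (45.5%), beside 1.47% of all distal and 1.12% of all listed regions. Regions of the list that were not called stood at 1.72 ± 2.06 (TEM1), 1.54 ± 1.44 and 0.37 ± 0.75 (TOE1) and 0.87 ± 0.23 (TEM2). Those of SVP and MAF2, also not called, stood at 0.27 ± 2.43 and 0.02 ± 1.11 (mean log2 enrichment ± SD). The median log2 enrichment over the 11 was 1.54, beside 0.38 over all distal regions, and 2 of the 11 passed edgeR, beside 0.568% of all distal regions. The list was drawn up with earlier results of these data known, so the count is a description.

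SMZ encodes an AP2-type repressor of flowering that is a target of microRNA miR172. The region 2628 bp upstream of it, on chromosome 3 from 20378971 to 20379330, held 821, 287 and 251 reads in gSOC1-GFP and 20, 3 and 4 in the untagged libraries. The lowest scaled gSOC1-GFP value, 955 RPM, stood far above the highest untagged value of 73.0. Log2 enrichment was 4.23 ± 0.37 (SD, n = 3), or 18.7-fold, and the region passed edgeR (adjusted p = 0.00152). The same region lay 2357 bp upstream of TON1A, a gene for a protein of the cortical microtubule array, so the table does not tell which gene it serves. The other listed region of this interval, 122 bp from SMZ, was not called.

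TOE3, another AP2-type gene of the same family, had a region 1377 bp upstream on chromosome 5, from 26805459 to 26805794. Its scaled values were 416, 713 and 597 RPM in gSOC1-GFP and 50.5, 97.4 and 16.1 in the untagged libraries. The groups did not overlap, and log2 enrichment was 3.57 ± 1.17 (SD, n = 3), with an edgeR adjusted p of 0.00938. Without replicate 3 the adjusted p was 0.136.

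TEM2 encodes a repressor of the florigen gene FT. A region on chromosome 1, from 25877519 to 25877872, lay 2627 bp upstream of TEM2 and 2145 bp upstream of STN7, which encodes a thylakoid kinase. It held 253, 299 and 171 RPM in gSOC1-GFP and 30.3, 73.0 and 64.6 in the untagged libraries, a log2 enrichment of 2.09 ± 0.79 (SD, n = 3). It did not pass edgeR (adjusted p = 0.251). A second distal region of TEM2, 1264 bp upstream, had a log2 enrichment of 0.87 ± 0.23 with no overlap between the groups, and it was not called.

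A further gene known to delay flowering, ATC, was not on the list and was named by its rank. ATC is a relative of TFL1 in the family of FT-like proteins. The region 1556 bp upstream, on chromosome 2 from 11771524 to 11771866, held 412, 182 and 166 reads in gSOC1-GFP and 4, 2 and 2 in the untagged libraries. In scaled reads the lowest gSOC1-GFP value was 621 and the highest untagged value 48.7. Log2 enrichment was 4.63 ± 0.76 (SD, n = 3), and edgeR gave an adjusted p of 0.000259. It was the single listed region in the gap between ATC and its left neighbour.

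AP2, a floral homeotic gene whose product also delays flowering, was the one gene with 2 called distal regions, and another called region lay in the same gap between LEJ2 and AP2 on chromosome 4. All 3 regions listed in that gap were distal promoter regions, and all 3 were called. The region nearest to AP2, 1653 bp upstream (17398802 to 17399111), held 252, 376 and 225 RPM in gSOC1-GFP and 45.4, 48.7 and 32.3 in the untagged libraries. The region 2838 bp upstream (17397512 to 17398031) held 231, 338 and 270 against 80.7, 97.4 and 113. Log2 enrichment was 2.63 ± 0.24 and 1.49 ± 0.26 (SD, n = 3), the groups did not overlap in either, and neither passed edgeR (adjusted p = 0.095 and 1.0). DESeq2 with the block gave adjusted p of 0.00767 and 0.355.

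The third region of that gap had the best rank of all distal promoter regions, 5 of 24032. It lay 2495 bp upstream of LEJ2, which encodes a chloroplast protein with CBS domains, and 4775 bp upstream of AP2, beyond the window used here (chromosome 4, 17395658 to 17396011). Its counts were 740, 316 and 315 in gSOC1-GFP and 17, 1 and 1 in the untagged libraries. Scaled, these were 1120, 1720 and 1200 RPM against 42.9, 24.3 and 16.1. Log2 enrichment was 5.48 ± 0.78 (SD, n = 3), 44.7-fold, and the edgeR adjusted p was 0.000259.

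In the gap between SOC1 and AT2G45670 all 3 listed regions were called, of which 1 was a distal promoter region. It lay 1975 bp upstream of SOC1 (chromosome 2, 18812818 to 18813227) and held 559, 757 and 1110 RPM in gSOC1-GFP against 103, 122 and 274 in the untagged libraries. Its log2 enrichment was 2.33 ± 0.31 (SD, n = 3), and it did not pass edgeR (adjusted p = 0.246). DESeq2 with the block gave it an adjusted p of 0.000633. Of the neighbouring called regions, that 89 bp upstream of SOC1 stood at 4.29 ± 0.74 and that 3428 bp upstream, which lay 233 bp from AT2G45670, at 1.22 ± 0.41. The 3 values fell with distance from SOC1 in this one gap. Both lines carry SOC1 transgenes with this promoter, and the counts do not tell the transgene from the native locus. On the list of floral integrators and meristem identity, 3 of 16 genes had a distal region, and SOC1 alone had a call. Its call was 1 of 4 regions, beside 1.47% of all distal and 1.12% of all listed regions. The uncalled regions stood at 0.44 ± 0.73 for FUL and at 0.52 ± 2.58 and -0.32 ± 1.45 for XAL1.

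**Figure D3:**
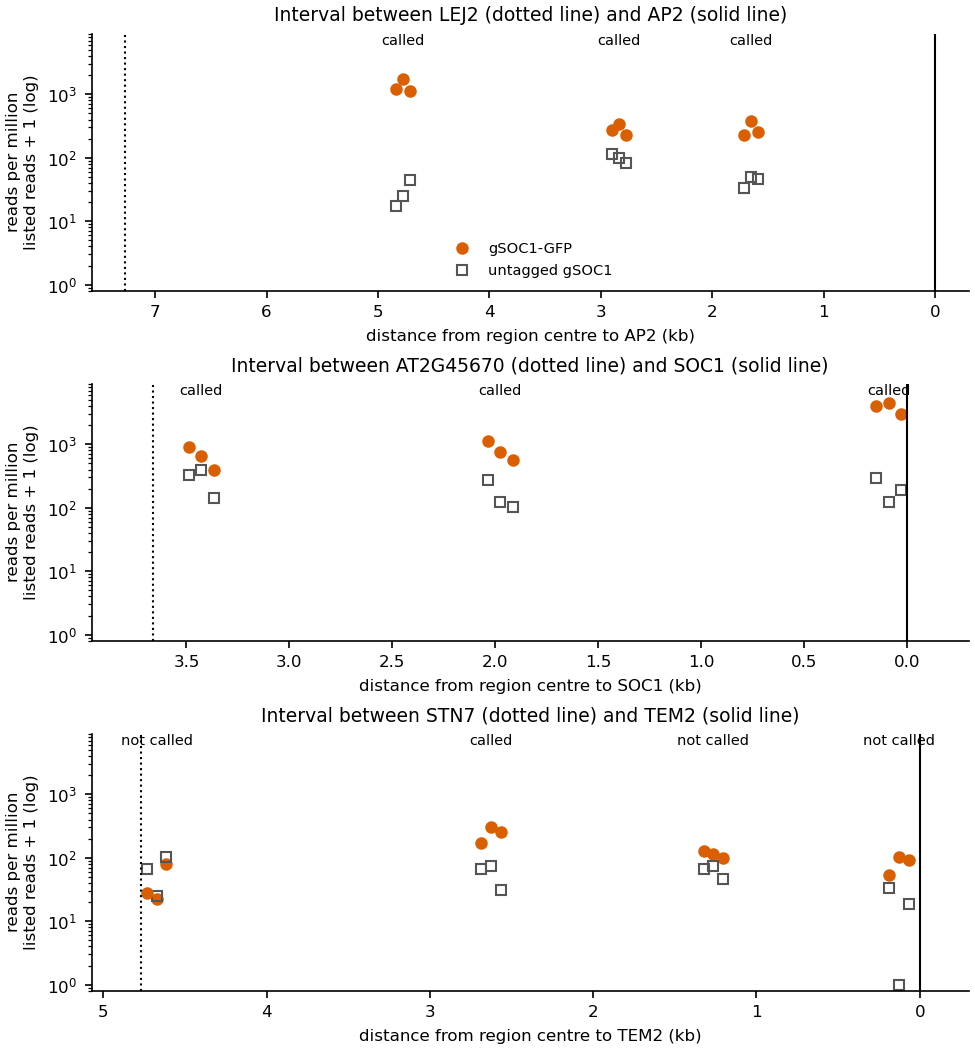
RPM with 1 added, on a log axis, for every listed region in the gaps between LEJ2 and AP2, AT2G45670 and SOC1, and STN7 and TEM2, by distance of the region's centre to AP2, SOC1 or TEM2. Each region has 3 gSOC1-GFP points (filled) and 3 untagged points (open), offset sideways for legibility. All 3 regions were called in the first 2 gaps, and 1 of 4 was called in the third.

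A pair of miR156 genes lay downstream of called distal regions. MiR156 is the microRNA that keeps plants juvenile by silencing SPL genes. The region 1495 bp upstream of MIR156e (chromosome 5, 3865550 to 3865886) had the highest log2 enrichment of the called distal regions, 6.21 ± 1.46 (SD, n = 3). It held 579, 240 and 229 reads in gSOC1-GFP and 8, 1 and 0 in the untagged libraries. The missing read in untagged replicate 3 raises the mean. Counted against a floor of 3 reads in that library, replicate 3 was at least 18.0-fold higher, and edgeR's log2 fold change was 5.72 (adjusted p = 0.000157). The region also lay 1962 bp upstream of AT5G11970, and the other listed region of the gap, 765 bp from AT5G11970, was not called.

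The other locus was AT5G26146, a long non-coding RNA gene that contains MIR156f in the RefSeq annotation. The region 2557 bp upstream of AT5G26146 held 107, 46 and 35 reads in gSOC1-GFP and 6, 0 and 2 in the untagged libraries. Log2 enrichment was 3.72 ± 2.14 (SD, n = 3), with edgeR at 3.20 (adjusted p = 0.0247) and an adjusted p of 0.167 without replicate 1. MIR156f was not itself the flanking gene in the authors' columns, and this link was made after the values were seen. Of 29 matched genes of the miR156, miR172 and SPL list, 7 had a distal region and MIR156e was the single gene with a called one. That was 1 of 7 regions (14.3%), beside 1.47% of all distal and 1.12% of all listed regions. MIR172a, a gene for the microRNA that silences SMZ, TOE3 and AP2, had a region with 6, 5 and 6 reads against 3, 0 and 0 that was not called.

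SEP3, a MADS gene like SOC1, also had a called distal region. SEP3 encodes a cofactor of the floral organ complexes. Its region lay 2725 bp upstream on chromosome 1, from 8598636 to 8599026, and 1634 bp upstream of AT1G24265. It held 909, 1320 and 868 RPM in gSOC1-GFP and 27.8, 146 and 145 in the untagged libraries. Log2 enrichment was 3.52 ± 1.20 (SD, n = 3) with an edgeR adjusted p of 0.0063, and the listed region 510 bp upstream of SEP3 was not called. Of 15 floral organ identity genes 5 had a distal region, and SEP3 was the 1 with a call. That was 1 of 5 regions, beside 1.47% of all distal and 1.12% of all listed regions. AG, the carpel and stamen identity gene, had 22, 5 and 12 reads against 7, 0 and 0 in a region 1595 bp upstream, a log2 enrichment of 2.52 ± 1.54 that was not called. STK, CRC and SUP, also not called, stood lower, at 0.27 ± 1.98, 0.59 ± 1.97 and 0.43 ± 2.49.

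AT1G30260, to which RefSeq gives the symbol AGL79, shared a called region with AT1G30250, at 1812 and 1727 bp. Whether AT1G30260 encodes a MADS protein was not checked. The values of the region differed little between pairs, at a log2 enrichment of 2.07 ± 0.18 (SD, n = 3), and it did not pass edgeR (adjusted p = 0.553). AGL21, a MADS gene known from lateral root growth, had the 1 distal region that passed edgeR without the authors' call (adjusted p = 0.0353). That region, 1044 bp upstream, held 69, 15 and 20 reads against 1, 2 and 0, and the authors' FDR in replicate 2 was 0.185. Without replicate 1 and without replicate 3 its adjusted p was 1.0 and 0.136.

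Called distal regions also lay upstream of genes of hormone and stress response. ABF4, which encodes a bZIP factor of abscisic acid signalling, had a region 1176 bp upstream on chromosome 3, from 6685808 to 6686120, that lay 2071 bp upstream of FUT11, a gene for a fucosyltransferase of N-glycans. It held 307, 86 and 76 reads in gSOC1-GFP and 6, 1 and 4 in the untagged libraries, a log2 enrichment of 3.60 ± 1.33 (SD, n = 3) with an edgeR adjusted p of 0.00392. ABF1 and ABF3, of the same family, stood at 1.98 ± 1.29 at 1072 bp and -0.28 ± 1.31 at 1792 bp and were not called. Of 34 abscisic acid genes 6 had a distal region and 1, ABF4, a called one. That was 1 of 6 regions (16.7%), beside 1.47% of all distal and 1.12% of all listed regions. The uncalled regions of NCED5, PYL1 and NCED2 stood at 1.35 ± 2.24, -0.13 ± 1.05 and -0.58 ± 0.51.

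P5CS1 encodes the enzyme of the committed step of proline synthesis. Its region lay 2191 bp upstream on chromosome 2, from 16605374 to 16605648, with 76, 23 and 29 reads in gSOC1-GFP and 2, 1 and 0 in the untagged libraries. Log2 enrichment was 3.63 ± 1.37 (SD, n = 3), or 12.4-fold, and 2.34 with a prior count of 5. Against a floor of 3 reads in untagged replicate 3, that replicate was at least 2.28-fold higher. With 3 untagged reads in all, the ratio of reads summed over libraries was 19.2 (95% Clopper-Pearson interval 6.42 to 94.3, counting error only). The edgeR adjusted p was 0.00776, and it was 0.569 without replicate 1 and 0.0532 without replicate 3. P5CS1 was the 1 gene of 17 on the cold response list with a called distal region, and 3 had any. That was 1 of 3 regions (33.3%), beside 1.47% of all distal and 1.12% of all listed regions. The uncalled regions, of ZAT12 and ICE1, stood at 0.28 ± 0.82 and -0.06 ± 0.42.

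Of 47 matched auxin genes 21 had a distal region. Their 25 regions had a median log2 enrichment of 0.63, beside 0.38 over all distal regions, and 1 was called (4.0%), beside 1.47% of all distal and 1.12% of all listed regions. The call was that 2406 bp upstream of ETT, the auxin response factor ARF3 that patterns the gynoecium, with 154, 66 and 98 reads against 10, 7 and 4. Log2 enrichment was 2.18 ± 1.01 (SD, n = 3), and the region did not pass edgeR (adjusted p = 0.199). Outside the list, SAUR10, a small auxin-upregulated gene, had a region 1341 bp upstream at 2.54 ± 0.38 (edgeR adjusted p = 0.0791). TMO6, a Dof factor gene downstream of MONOPTEROS, had one 1260 bp upstream with 52, 20 and 18 reads against 8, 1 and 0. Its log2 enrichment of 2.69 ± 1.38 (SD, n = 3) was raised by the library without reads, and it did not pass edgeR (adjusted p = 0.524).

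Among the remaining called regions, 2 passed edgeR. The region between AT1G12070 and AT1G12080, at 2474 and 1581 bp, had a log2 enrichment of 3.02 ± 1.44 (adjusted p = 0.0307, and 0.162 without replicate 1). That between LSH6, a gene of the ALOG family of growth regulators, and the tRNA gene AT1G07100, at 1510 and 1480 bp, had 3.17 ± 0.71 (adjusted p = 0.023, and 0.179 without replicate 3). RVE2, which encodes a MYB-like factor of the clock family, had a region 2589 bp upstream with 178, 256 and 251 RPM against 25.2, 146 and 32.3. Its log2 enrichment was 2.09 ± 1.13 (SD, n = 3) and it did not pass edgeR (adjusted p = 0.315).

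A further 4 called regions each missed the edgeR threshold. The region between ACX4, a gene of peroxisomal fatty acid breakdown, and the calcium-dependent kinase gene CPK13 stood at 2.11 ± 0.95, and that between PSAH-1, of photosystem I, and the asparaginase gene ASPGB1 at 2.21 ± 0.66. The vacuolar transporter gene ABCC1 had 2.14 ± 0.47 at 1313 bp. The region between the pseudogene AT5G28405 and AT5G28410 had 2.64 ± 1.10 (SD, n = 3 for each).

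The rest held from 81 (IDL5) to 155 (AT3G44450) reads over the 3 gSOC1-GFP libraries. Regions given above had as few, at 116 for ABCC1, 128 for P5CS1, 94 for AGL79 and 90 for TMO6. At several of the rest an untagged library without reads raised the mean. AT3G44450 had 108, 25 and 22 reads against 8, 0 and 1, with a log2 enrichment of 3.39 ± 1.63. For AT5G66800, the transporter gene NPF3.1 and the peptide gene IDL5, untagged replicate 2 had no read. Their log2 enrichments of 2.60 ± 2.15, 3.01 ± 2.08 and 2.82 ± 2.26 became 1.42, 1.86 and 1.59 without replicate 2, and edgeR gave 1.81, 2.06 and 1.79. AT5G60980 had 1.77 ± 1.10, and 1.14 without replicate 3, at a region that also lay 3470 bp upstream of TCP5, beyond the window. The lowest were AT2G47500 (1.15 ± 0.52) and TTL4 (1.00 ± 0.35). At these 3 regions the scaled values of the genotypes overlapped, and they were the called regions at which they did.

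Gene lists with no called distal region were those of photoperiod, light and clock, gibberellin, cytokinin, ethylene and jasmonate, shoot meristem and organ polarity, other microRNA genes, epidermis, photosynthesis and housekeeping genes. They differed in how many distal regions they had to begin with. Of all distal regions 1.47% were called, so no call among so few regions says little. The median log2 enrichment of all distal regions was 0.38. The lists were not complete. RVE2 of the clock family, PSAH-1 of photosystem I and the thylakoid kinase gene STN7 had called regions but were not listed. Of 37 photoperiod and clock genes 7 had a distal region, called or not, at a median log2 enrichment of 1.10 over 8 regions. Of 29 gibberellin genes 11 had one, at 0.88 over 14 regions. Of 37 meristem and polarity genes 18 had one, at 0.19 over 25 regions. None of the 18 photosynthesis genes and 1 of 13 housekeeping genes, ACT8 at -0.03, had one.

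Among the uncalled regions of these lists, RPL (BLH9), a homeobox gene of stem growth and the meristem, had 77, 25 and 23 reads against 9, 1 and 2 in a region 2635 bp upstream, with an FDR of 0.0719 in replicate 3. Its log2 enrichment was 1.95 ± 0.53 (SD, n = 3), with an edgeR adjusted p of 0.553. GA2OX1, which encodes an enzyme that inactivates gibberellin, had distal regions 2758 and 1355 bp upstream, at 2.22 ± 2.07 and 1.87 ± 2.51, each with no read in untagged replicate 2, and at the nearer one the genotypes overlapped. CDF3, a Dof repressor of CONSTANS, had 23, 12 and 31 reads against 6, 0 and 2 in a region 1832 bp upstream.

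**Figure D4:**
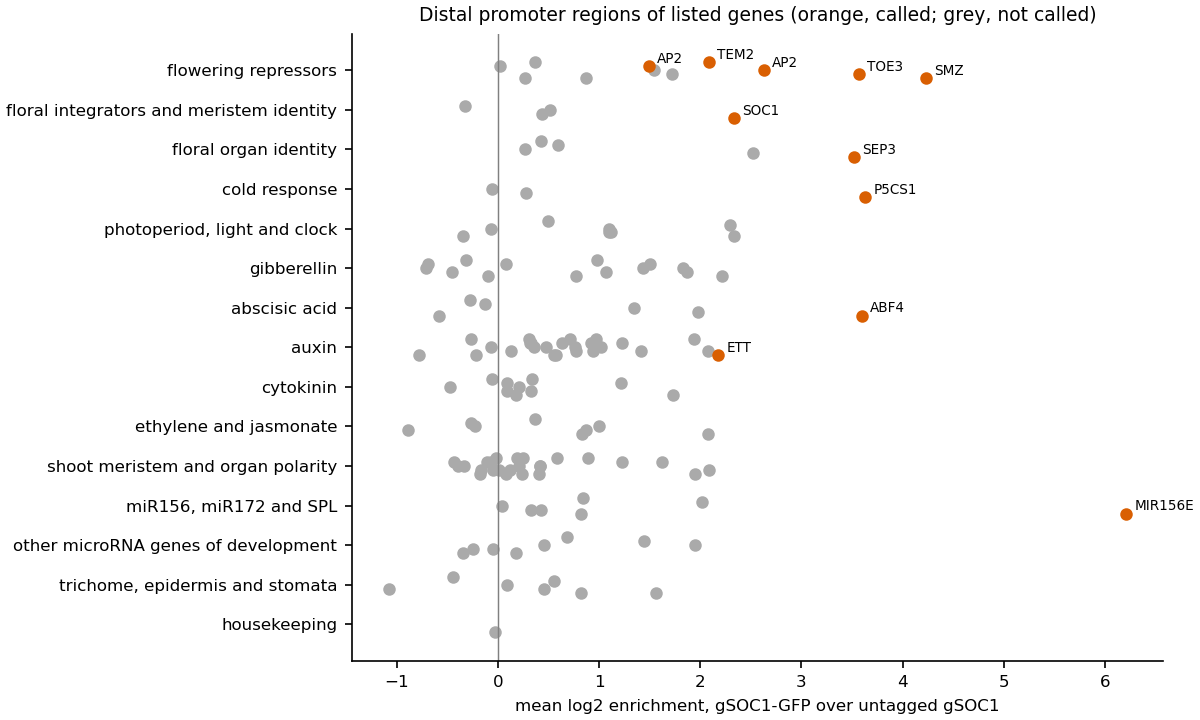
Mean log2 enrichment over 3 replicate pairs of each distal promoter region that lies upstream of a listed gene, 1 row per list and 1 point per region, spread vertically for legibility. Called regions are orange and named, and uncalled ones are grey. The flowering repressors have 5 called regions, and no other list has more than 1.

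Within the window, the share called was similar at all distances. Up to 1500 bp 11 of 848 regions were called (1.30%, 95% Clopper-Pearson interval 0.649 to 2.31), and beyond 2500 bp 5 of 313 (1.60%, 0.521 to 3.69). The intermediate bins stood at 1.66% of 541 and 1.46% of 412, and every interval included the others' values. The median log2 enrichment of all distal regions lay between 0.33 and 0.41 in the 4 bins. Regions upstream of both flanking genes were called in 11 of 458 cases (2.40%), those downstream of their other flanking gene in 15 of 1022 (1.47%), and those whose other gene pointed away beyond 3000 bp in 5 of 633 (0.79%). These shares were not tested.

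**Figure D5:**
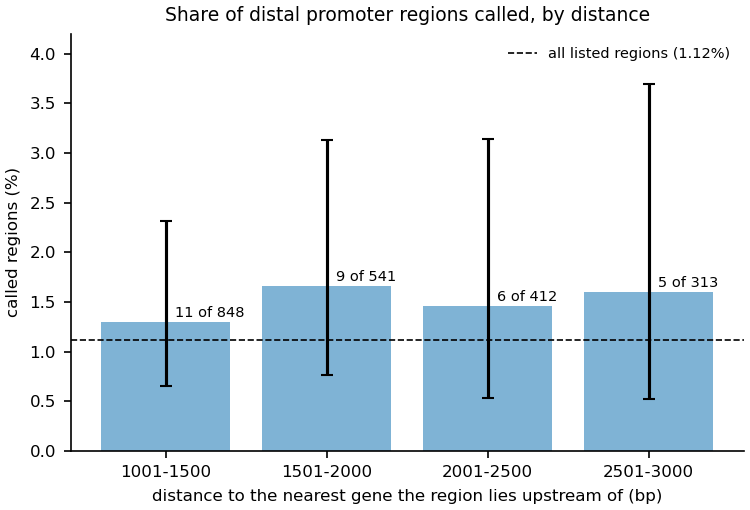
Share of distal promoter regions that were called, in bins by distance to the nearest gene they lie upstream of. Bars give the percent called with 95% Clopper-Pearson intervals (counting error only), the labels give the counts, and the dashed line is the share of all listed regions, 1.12%. The intervals overlap in all 4 bins.

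At the edges of the window, the called region nearest to a gene was that at 1003 bp from PSAH-1, and the called region closest to the outside lay 956 bp upstream of SUP, the floral boundary gene, at a log2 enrichment of 4.52 ± 1.58. At the far edge AT5G60980 lay inside at 2842 bp, and a called region 3203 bp upstream of MYB90, at 2.28 ± 0.46, lay outside. By FDR, IDL5 was the last called region, with a highest FDR of 0.0448. The next, upstream of AT1G17940 and MYB52, had 0.0649 and a log2 enrichment of 0.79 ± 0.92.

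As a class, the distal promoter regions took 8.85%, 8.67% and 8.58% of all gSOC1-GFP reads in the table and 8.12%, 7.73% and 8.01% of the untagged reads. The means were 8.70% ± 0.139 and 7.95% ± 0.203 (SD, n = 3), without overlap. A two-sided exact permutation test gave p = 0.1, and with 3 libraries a side it can give no smaller value. The 31 called regions took 1.19% ± 0.248 and 0.153% ± 0.0481 (SD, n = 3), a difference of 1.04 percentage points on which they had been selected. The 2083 distal regions that were not called took 7.51% ± 0.313 in gSOC1-GFP and 7.80% ± 0.246 in the untagged libraries. Leaving out regions selected on this difference lowers it by construction. The median log2 enrichment of those not called was 0.37, beside 0.27 for all listed regions not called. Over all distal regions the median of the mean RPM was 26.5 in gSOC1-GFP and 26.8 in the untagged libraries. Regions with no gene within 3000 bp also had the larger share in gSOC1-GFP, at 1.68% ± 0.0308 against 1.57% ± 0.0402 (exact permutation p = 0.1), so a higher share was not particular to the distal regions.

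Regions up to 1000 bp upstream of a gene took 51.2% ± 2.25 of the gSOC1-GFP reads and 52.8% ± 3.92 of the untagged reads (SD, n = 3), and the values overlapped (exact permutation p = 0.6). The log2 ratio of the distal to the proximal share was -2.56 ± 0.04 in gSOC1-GFP and -2.73 ± 0.08 in the untagged libraries (SD, n = 3), higher in all 3 gSOC1-GFP libraries (two-sided exact permutation p = 0.1, the smallest possible). Of the 10270 proximal regions 1.24% were called, with a median log2 enrichment of 2.20 in the called ones beside 2.64 in the distal ones. Of the 483 regions with no gene within 3000 bp 1.66% were called, and their median log2 enrichment was 0.40 beside 0.38 for the distal ones. The called distal regions were longer than the others, at a median of 337 bp against 204 bp for all distal regions, as were the called proximal regions, at 341 bp against 247 bp.

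Replicate by replicate, 274, 64 and 69 distal regions passed the authors' FDR in replicates 1, 2 and 3, or 13.0%, 3.03% and 3.26%, against 10.1%, 2.86% and 3.16% of all listed regions. Regions chosen in 2 replicates were then measured in the one left out. The 31 distal regions that passed in replicates 2 and 3 all lay above 0 in replicate 1, at a median log2 enrichment of 2.78, and all of them also passed there. Replicate 2 was above 0 at 41 of the 46 that passed in the other pair (89.1%, median 2.10). For replicate 3 this held at 45 of 55 (81.8%, median 1.36). Over all listed regions chosen the same way 95.3%, 89.4% and 83.1% lay above 0 in replicates 1, 2 and 3, at medians of 2.40, 1.85 and 1.33. Among the remaining distal regions the medians were 0.38 for replicate 1, 0.15 for replicate 2 and 0.13 for replicate 3, and 65.8%, 55.0% and 53.0% were above 0. The table of candidate regions may itself have drawn on all replicates.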

How the data were processed

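Raw read counts per region and library were deposited, with no scaling, per the file headers. The authors' p-values were an FDR for each replicate, and their log2 rank product and rank score summarised these, per the file headers. Distances ran from a region's centre to the closest gene on either side, also per the file headers. Coordinates were in TAIR10 (submitters' processing notes). For the aligner, the region caller, the test behind the FDR, the read filters and whether starts count from 0 or 1, the sources used here give nothing. Starts are printed as deposited and ends were computed from start and length.

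Libraries were grouped by title. Column totals are reads in the listed regions, not sequencing depth, which was not used here. PCR reads without molecular identifiers are not independent molecules, so intervals and the floor of 3 reads cover counting error only. Symbols and gene types were looked up in RefSeq's table for TAIR10.1, which held 2273 of the 2316 genes (98.1%). No sequence was used.

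The members, gene lists and tests were chosen with earlier results of these data known. The regions named were the 25 called distal regions of best rank, all called regions of listed genes, those that passed edgeR alone, and up to 4 uncalled regions per gene list by rank. The other called distal regions, some further uncalled regions of listed genes, and values of neighbouring regions in the same gap were added after their values were seen. edgeR 4.0.16 and DESeq2 1.42.0 ran in R 4.3.3 over all 24032 regions, edgeR with TMM library sizes and without a filter. The edgeR procedure was also tested for recovery of known changes, on counts simulated from the fitted means of these libraries. The simulation gave every region the same dispersion and changed only regions with higher counts. It therefore cannot show recovery at regions with few reads. DESeq2 gave 5395 regions an adjusted p. Deviations from the group means correlated at 0.449, 0.108 and 0.105 between same-numbered libraries of replicates 1, 2 and 3, each above the bound of 0.1 set for pairing, narrowly so for replicates 2 and 3. Libraries of different numbers reached 0.0928 (gSOC1-GFP 3 with untagged 2) and 0.0701 (gSOC1-GFP 2 with untagged 3). Deviations within a genotype cancel out by construction, so the value for replicate 1 pushes those among replicates 2 and 3 upward. The bound therefore cannot show that replicates 2 and 3 were paired. Replicate numbers in the titles, by which the FDR columns are also arranged, gave the pairing. The alternatives were other FDR bounds, windows, scalings and prior counts, a filter on low counts, no block, and each replicate left out.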

Additional observations from a re-analysis of the deposited data

How the results depend on the processing

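The number of called distal regions was 20 at an FDR of 0.01, 70 with at least 2 of 3 replicates and 20 with the window ended at 2000 bp, against 31, and it ranged from 31 to 55 without each replicate, which asks for fewer replicates by construction. It was 42 at an FDR of 0.1. The 12 distal regions that passed edgeR with the replicate block became 0 with no replicate block, 26 with column totals and 26 with the filter on low counts, and from 8 to 15 without each replicate pair; DESeq2 with the block gave 18. Without the block and without replicate 1, an alternative added after seeing the data, edgeR called 10. Of the 12 regions, 6 kept their call without each pair in turn (LEJ2, SMZ/TON1A, MIR156e, SEP3, ATC and ABF4). The median log2 enrichment of distal regions was 0.13 with a prior count of 5, beside 0.08 for all listed regions, and ranged from 0.24 to 0.42 without each replicate. With distal regions not called, also added later, the difference in read share reversed to -0.29 percentage points from 0.75; these regions were left out for this same difference, so a fall is built in. Without each replicate it ranged from 0.651 to 0.842. For the called regions the difference was 0.656 points with the window ended at 2000 bp, against 1.04, since fewer regions were counted, and ranged from 0.917 to 1.11 without each replicate. The 31 called distal regions and AGL21 were also recomputed. None of these 32 changed direction under the alternatives run. Each was above 0 in all 3 pairs, so leaving out a pair could not reverse its mean. The setting with no block leaves this mean unchanged by construction. With a prior count of 5, 3 moved by more than their SD. That bound is wide where the pairs differed: P5CS1 went from 3.63 to 2.34 with that prior count and stayed within it. Except where stated, the cause of these changes was not tested. The uncalled regions named were not recomputed.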
